A study of Mus musculus with 9 samples.

Results

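The major urinary protein genes described here are Mup3, Mup7, Mup10, Mup11, Mup12, Mup14, Mup15, Mup17, Mup20 and Mup21. They were chosen by symbol, with their levels in these livers already known, and are 10 of the 54532 genes of the deposited table. By symbol that table holds 48 Mup genes and pseudogenes in all. Because the members were chosen on these values, their levels and differences are given as a description and carry no p-value, and tests are given for other genes only.

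Livers of wild-type male C57BL/6J mice were sequenced as poly(A) RNA, in 3 groups of 3 libraries. In the 326E group, mice with MASH (metabolic dysfunction-associated steatohepatitis, fatty liver with inflammation) induced by CDAA-HFD received 326E at 30 mg/kg for 6 weeks. In the vehicle group, mice on CDAA-HFD received vehicle, and in the chow group, mice on normal chow received vehicle. Per the study's title 326E is an enedioic acid analogue with ACLY (ATP citrate lyase, which makes cytosolic acetyl-CoA for lipid synthesis) and PPARα (a nuclear receptor of fatty acid oxidation) as targets. Sample titles of all groups begin with MCD, while the protocol names CDAA-HFD or chow, and the protocol is followed. No label says that each library is a separate animal, so p-values measure the spread between these samples. The comparisons share libraries: the vehicle libraries serve in both diet and treatment comparisons, and the chow libraries in both comparisons with chow.

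Major urinary proteins are small secreted lipocalins, barrel-shaped carriers of hydrophobic ligands. Hepatocytes make them in large amounts, and they pass through the kidney into urine, where they hold and release volatile pheromones. In mice most of them are more abundant in adult male than in female liver, under the pulsatile growth hormone pattern of males acting through the transcription factor STAT5B. Mup20 encodes darcin, a protein of male urine that acts as a pheromone itself.

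All members lie on the minus strand of chromosome 4, between positions 60066469 (start of Mup7) and 62150863 (end of Mup21) of mm10, within a cluster of 47 Mup rows that begins at 59956804. The 10 genes fall into sequence classes that matter for reading their values. Coding sequences of Mup7, Mup10, Mup11, Mup12, Mup14, Mup15 and Mup17 were 98.3% to 99.4% identical to each other, taking the commonest isoform length of each gene in GENCODE release M21. Mup3 and Mup21 were 94.7% identical to each other, and Mup20 was at most 91.3% identical to any other member. The same stretch of 60 coding bases (from coding base 212 in genes with 540 coding bases) is shown for 5 members because it separates these classes. Capitals mark bases that differ from the commonest base among the 10 members at that place, and each sequence is the coding strand, from the release M21 transcripts of chromosome 4:
Mup7: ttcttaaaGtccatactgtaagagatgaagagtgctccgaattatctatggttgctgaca
Mup15: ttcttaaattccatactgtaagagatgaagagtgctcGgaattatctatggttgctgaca
Mup20: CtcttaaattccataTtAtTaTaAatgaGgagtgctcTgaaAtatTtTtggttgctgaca
Mup3: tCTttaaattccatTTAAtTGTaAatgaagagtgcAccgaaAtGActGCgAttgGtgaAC
Mup21: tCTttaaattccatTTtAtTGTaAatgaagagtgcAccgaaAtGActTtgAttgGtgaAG

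In this stretch Mup7 and Mup15 each have 1 base unlike the commonest, Mup20 has 11, Mup21 has 18 and Mup3 has 20. Over the 540 coding columns without gaps, 116 vary among the 10 genes. Over these 540 columns Mup3 has 86 bases unlike the commonest, Mup21 has 84 and Mup20 has 50, against 2 to 5 in each of the 7 near-identical genes.

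This likeness bears on the measurement, since reads from near-identical genes can be counted for a neighbour, for several genes or for none, and how such reads were handled is not given in the sources used here. Of all 100-base windows in its transcripts, Mup3 had 97.8% that occur in no other gene's transcripts, Mup21 had 95.5% and Mup20 had 61.2%. Among the near-identical genes that share was 40.6% for Mup17 and between 22.5% and 29.4% for Mup7, Mup10, Mup11, Mup12 and Mup14. Mup15 had 2.66%, and no window of its own at all at 50 bases, so the values listed for it are the least certain of the 10. Values for single near-identical genes are therefore uncertain, and their sum is given beside them.

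**Figure D1:**
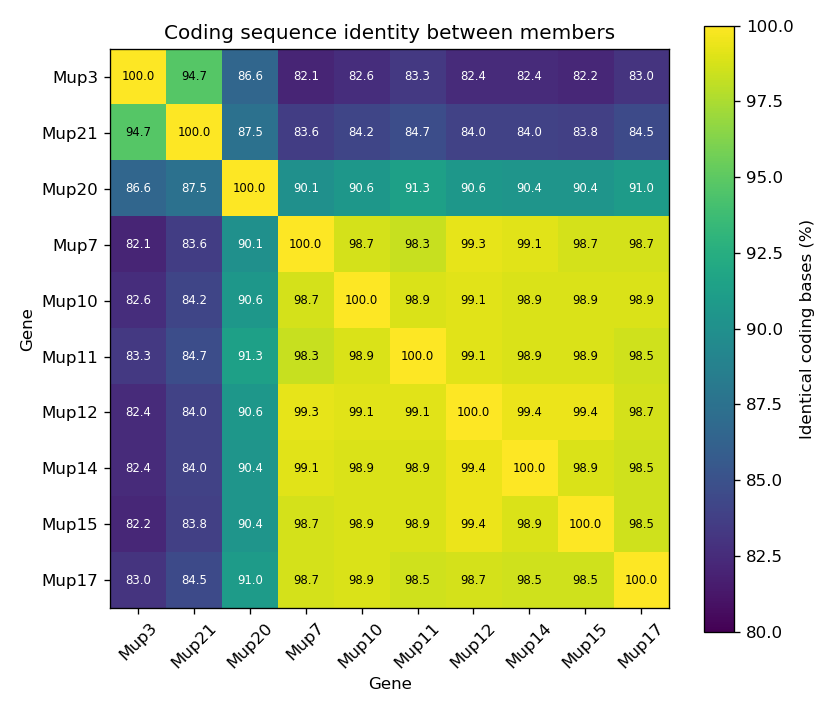
Percent of identical coding bases between each pair of the 10 members (colour from 80% to 100%, value printed in each cell). The 7 genes at the lower right are 98.3% to 99.4% identical to each other, while Mup3 and Mup21 pair at 94.7% and Mup20 stands between the classes.

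The files hold FPKM (reads per kilobase of gene, scaled to the size of the library), from 13275888 to 17058316 assigned reads per library. A single read on a kilobase of gene was worth 0.0492 to 0.0910 FPKM. The library sizes behind the FPKM are 0.828 to 0.860 times the assigned reads in chow libraries and 1.01 to 1.19 times in the CDAA-HFD libraries. Chow FPKM therefore stand higher against the other groups than shares of assigned reads do. Chow replicate 3 and 326E replicate 1 also held RNA of exocrine pancreas genes: Pnlip, a pancreatic lipase, stood at 1376 FPKM in chow replicate 3 and 109 FPKM in 326E replicate 1, against at most 1.46 FPKM in the others, and results that rest on them are given without them below. In bulk liver, fewer cells of a type and less RNA per cell cannot be told apart. The hepatocyte genes Alb and Ttr (transthyretin) were among the most abundant, at 16456 to 34911 FPKM for Alb over the 9 libraries.

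Together the members had far fewer reads in livers on CDAA-HFD than in livers on chow, and 326E livers had somewhat more than vehicle livers. The sum over members of FPKM times gene length does not depend on how reads were divided among the members. It can still miss reads that fit several genes or were counted for genes outside the members. The sum was 7.12, 6.21 and 5.94 FPKM × Mb in 326E libraries and 2.78, 4.95 and 3.49 FPKM × Mb in vehicle libraries. In the chow libraries it was 38.6, 42.2 and 43.1 FPKM × Mb. No group overlapped another. The mean was 6.42 ± 0.619 FPKM × Mb in 326E, 3.74 ± 1.11 FPKM × Mb in vehicle and 41.3 ± 2.39 FPKM × Mb in chow (SD, n = 3 each). The 326E sum was thus 1.72 times the vehicle sum and 15.6% of the chow sum, and the vehicle sum was 9.05% of the chow sum. Without 326E replicate 1 the log2 difference between 326E and vehicle sums was 0.70 rather than 0.78, and without chow replicate 3 that between vehicle and chow was -3.43 rather than -3.47.

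As a share of each library's assigned reads, the members took 0.820%, 0.698% and 0.598% in the 326E libraries, 0.312%, 0.589% and 0.362% in the vehicle libraries, and 3.32%, 3.60% and 3.57% in the chow libraries. On this scale the vehicle mean was 12.1% and the 326E mean 20.2% of the chow mean. Counting all rows named Mup in place of the 10 members gave 0.754% in 326E, 0.449% in vehicle and 3.66% in chow on average. The 10 members thus held most reads of the rows named Mup. Gm21320, a gene inside the cluster described under other observations, is not among those rows.

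The composition of the family differed between groups too. Mup20 made up 41.4%, 49.1% and 31.3% of the members' sum in 326E libraries, 61.5%, 61.6% and 52.9% in vehicle libraries, and 6.88%, 6.57% and 5.72% in chow libraries. Mup20 and Mup3 together were 65.5% ± 6.27 of the sum in 326E, 94.4% ± 2.68 in vehicle and 33.2% ± 5.68 in chow (SD, n = 3 each). Conversely, the 7 near-identical genes held 33.5% of the sum in 326E livers and 4.92% in vehicle livers, against 66.4% in chow livers.

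**Figure D2:**
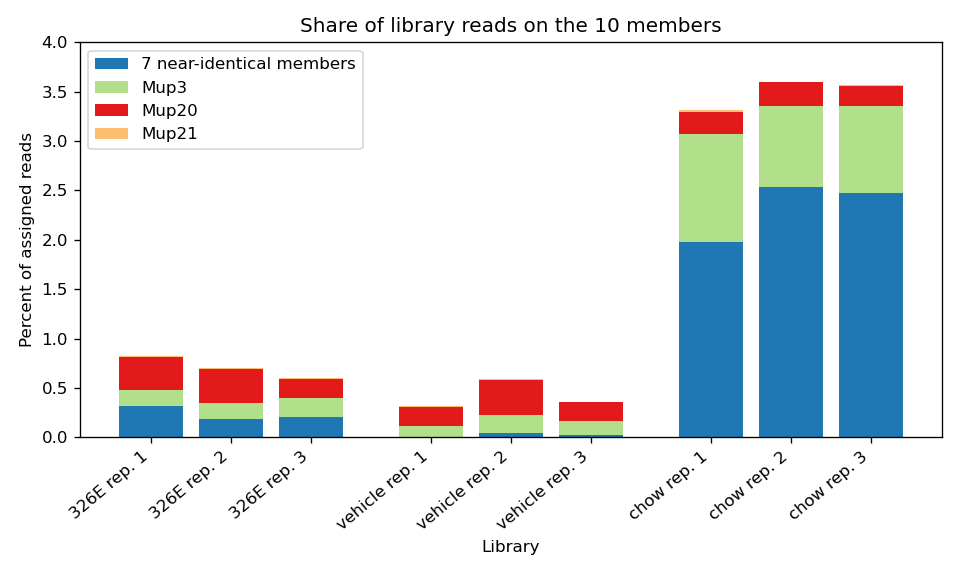
Stacked bars give the percent of assigned reads on the members in each of the 9 libraries, split into the 7 near-identical genes, Mup3, Mup20 and Mup21. Bars reach 0.598% to 0.820% in 326E, 0.312% to 0.589% in vehicle and 3.32% to 3.60% in chow, and the blue segment of the near-identical genes is barely visible in vehicle.

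The 7 near-identical genes, taken as 1 sum, were where the groups lay farthest apart. They had 49358, 30223 and 31008 reads in the 326E libraries, 1018, 7155 and 3257 reads in the vehicle libraries, and 297097, 384234 and 328727 reads in the chow libraries. The lowest 326E library was above the highest vehicle library, and the highest 326E library was below the lowest chow library. On the FPKM times length scale the 326E sum was 10.8 times the vehicle sum and 7.87% of the chow sum, and the chow sum was 137 times the vehicle sum. Vehicle replicate 2, with the most of these reads in its group, weighs on both: without it the 326E sum was 17.2 times and the chow sum 219 times the vehicle sum. This sum does not depend on how reads were divided among the 7, though it can still miss reads that fit several genes.

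Among single genes of this class, Mup7 had 1354, 741 and 904 FPKM in 326E, 10.4, 159 and 130.2 FPKM in vehicle, and 9522, 9107 and 9172 FPKM in chow. The groups were apart by wide margins, and the chow libraries differed from each other by 1.05 times while the vehicle libraries differed by 15.3 times. Mup12 had 819, 518 and 733 FPKM in 326E, 20.5, 107 and 31.8 FPKM in vehicle, and 6598, 13786 and 8285 FPKM in chow. Its 326E mean was 13.0 times the vehicle mean and 7.22% of the chow mean, with no overlap between groups. Without vehicle replicate 2 the 326E mean was 26.4 times the vehicle mean.

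Mup17 had 335, 250.1 and 209 FPKM in 326E, 0.989, 3.50 and 4.45 FPKM in vehicle, and 2152, 1735 and 5217 FPKM in chow. Of all members it had the largest ratio of 326E to vehicle, 88.9 between the means. Its vehicle values rested on 15, 66 and 71 reads.

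Mup15 had 14.3, 21.2 and 15.9 FPKM in 326E, 0.198, 1.38 and 1.25 FPKM in vehicle, and 3881, 4230.3 and 6359 FPKM in chow. The vehicle values came from 3, 26 and 20 reads, and the exact 95% Poisson interval on 3 reads is 0.619 to 8.77 reads, which covers counting error only. In 326E livers Mup15 was at 0.355% of the chow mean, whereas the other 6 near-identical genes were at 7.22% to 37.4% of it. Mup15 is thus the member farthest below chow in both CDAA-HFD groups, and also the one with the smallest share of windows of its own.

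The annotated promoters of Mup15 and Mup17 were close to each other. Promoters of 8 members (all but Mup12 and Mup20) matched the RefSeq table on GRCm38.p6. Set against the Mup11 promoter, Mup17 had 98.9% and Mup15 had 97.5% identical bases, while Mup3 had 76.7% and Mup21 had 74.3%. The last 100 bases before the annotated start are shown for Mup15 (chr4:61439705-61439804, minus strand), Mup17 (chr4:61595833-61595932, minus strand) and Mup3 (chr4:62087318-62087417, minus strand), since these genes differed so widely in level. They are written 5′ to 3′ on the gene's strand, and capitals mark the letters TATANAA, as in a TATA box:
Mup15: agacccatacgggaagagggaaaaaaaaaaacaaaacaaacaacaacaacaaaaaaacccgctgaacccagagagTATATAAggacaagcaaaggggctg
Mup17: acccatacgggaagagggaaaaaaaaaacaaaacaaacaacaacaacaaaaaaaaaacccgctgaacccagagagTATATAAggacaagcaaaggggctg
Mup3: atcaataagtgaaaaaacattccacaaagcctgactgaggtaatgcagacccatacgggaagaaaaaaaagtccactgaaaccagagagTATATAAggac

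TATANAA was found on either strand in 7 of the 8 member promoters (all but Mup7), against 11.3% of 32851 promoters of the same 300 bases. The Mup7 window aligned to the Mup11 promoter over 194 bases only, at 98.5% identity, and ended before the place of TATANAA in Mup11. Whether Mup7 has these letters beyond its window was not looked at. TTCNNNGAA, the spacing bound by STAT factors, was in 0 of 8 and in 8.30% of all promoters. TTGCNNAA, a C/EBP pattern, was in 0 of 8 (10.8% of all), GTTAAT, part of an HNF1 site, in 0 of 8 (7.10%), and the PPAR-RXR repeat in 0 of 8 (0.0396%). AGAACA, a glucocorticoid receptor pattern, was in Mup3 and Mup21 and in 19% of all. These are matches of letters within 300 bases around the annotated start and say nothing of binding.

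The less abundant near-identical genes had the same order of groups. Mup11 had 104, 63.4 and 97.5 FPKM in 326E, 9.0, 47.7 and 8.10 FPKM in vehicle, and 594, 832 and 1079 FPKM in chow. Mup14 had 105, 52.9 and 39.3 FPKM in 326E, 12.2, 5.87 and 4.03 FPKM in vehicle, and 393, 468 and 249.8 FPKM in chow. In both genes the groups did not overlap, and the nearest approach was Mup11 in 326E replicate 2 (63.4 FPKM) and vehicle replicate 2 (47.7 FPKM).

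Mup10 was the least abundant member in every group, at 2.16, 2.39 and 2.03 FPKM in 326E, 0.264, 0.637 and 1.04 FPKM in vehicle, and 6.13, 5.05 and 6.41 FPKM in chow. These rest on 43 to 60 reads in 326E, 6 to 25 reads in vehicle and 91 to 110 reads in chow. The groups did not overlap, and the 326E mean was 37.4% of the chow mean.

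Mup3, which has the most bases unlike the other members, had 1243, 1351 and 1831 FPKM in 326E, 932, 1407 and 1343 FPKM in vehicle, and 11860.5, 9037 and 9948 FPKM in chow. The 326E and vehicle groups overlapped, and both lay below all chow libraries. The 326E mean was 14.3% and the vehicle mean 11.9% of the chow mean. The log2 difference between 326E and vehicle was 0.27 (SE 0.23) on log2(FPKM+1), a scale that understates changes of low genes, and -0.20 after quantile normalization, so no direction is given for it.

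Mup21, the nearest relative of Mup3, had 74.3, 61.1 and 143 FPKM in 326E, 18.6, 63.2 and 33.3 FPKM in vehicle, and 377, 148 and 175 FPKM in chow. The 326E and vehicle groups overlapped by 1 library, and the highest 326E library was just below the lowest chow library. The mean in 326E was 39.8% and in vehicle 16.4% of the chow mean.

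Mup20, the darcin gene, had 3181, 3287 and 2004 FPKM in 326E, 1839, 3285 and 1988 FPKM in vehicle, and 2862, 2986 and 2656 FPKM in chow. All 3 groups overlapped. The 326E mean was 99.6% and the vehicle mean 83.6% of the chow mean. The log2 difference between vehicle and chow was -0.31 (SE 0.27) as deposited, 0.09 when scaled to assigned reads and 0.65 after quantile normalization, and that between 326E and chow was -0.04, 0.33 and 0.74 on these scales, so its direction against chow depends on the scaling.

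**Figure D3:**
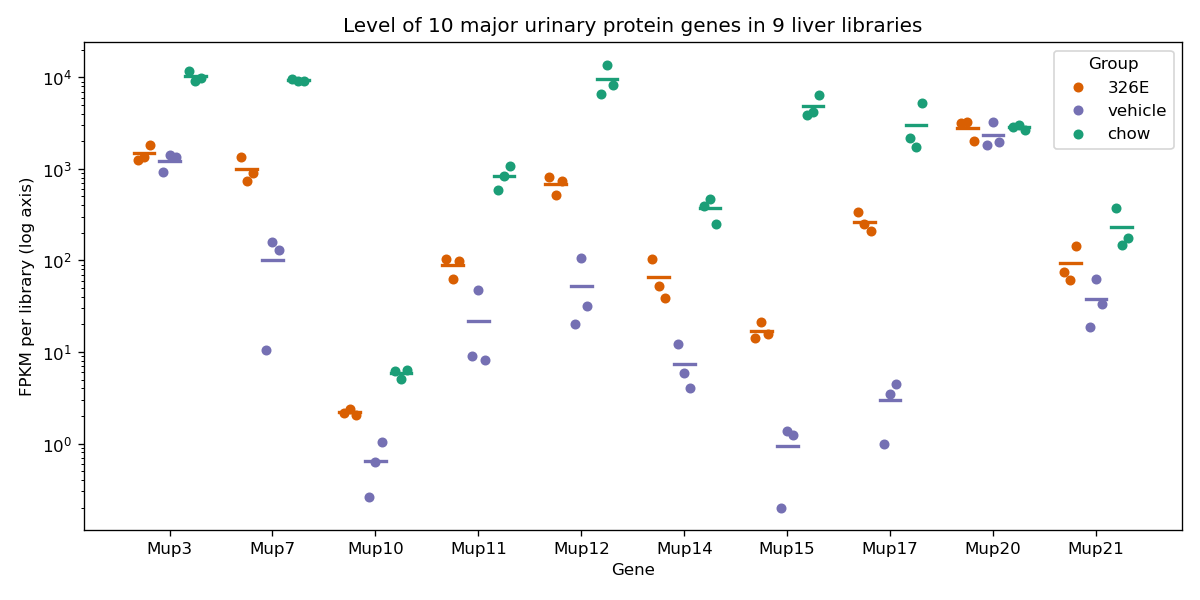
FPKM of each member in each of the 9 libraries on a log axis, with 1 point per library, a bar at the group mean, and 326E left of vehicle left of chow. In 7 genes all vehicle points lie below all 326E points, the 3 groups of Mup20 overlap, and Mup15 drops to 0.198 FPKM in vehicle replicate 1.

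All 10 members passed the filter on low values. Counted by libraries, 9 members had all vehicle libraries below all chow libraries (27.0% of tested genes did). Likewise 7 had all 326E libraries above all vehicle libraries (14.8%), and 9 had all 326E libraries below all chow libraries (22.6%). The median log2 difference of the members was -5.58 in vehicle against chow, 2.70 in 326E against vehicle and -3.01 in 326E against chow, beside medians of -0.04, -0.02 and -0.02 over all 13737 tested genes. As the members were chosen on these values, nothing is read from the counts.

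The order of listed levels within a group differed between groups. FPKM is per length but takes no account of reads shared by paralogs, so the places of the 7 near-identical genes in it are uncertain. In 326E the order by mean was Mup20, Mup3, Mup7, Mup12, Mup17, Mup21, Mup11, Mup14, Mup15 and Mup10. Mup3 and Mup7, Mup7 and Mup12, Mup21 and Mup11, and Mup11 and Mup14 overlapped over libraries. In vehicle it was Mup20, Mup3, Mup7, Mup12, Mup21, Mup11, Mup14, Mup17, Mup15 and Mup10, with every neighbour from Mup7 downwards overlapping the next.

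In chow the order was Mup3, Mup12, Mup7, Mup15, Mup17, Mup20, Mup11, Mup14, Mup21 and Mup10. Mup3, Mup12 and Mup7 overlapped as neighbours, as did Mup15, Mup17 and Mup20, and Mup14 and Mup21. Mup20 thus ranked 6 in chow and 1 in both CDAA-HFD groups, at a level of 2370.4 to 2835 FPKM on average in all groups, as the other abundant members lay far lower on CDAA-HFD. Mup15 ranked 4 in chow and 9 in both CDAA-HFD groups.

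Within groups the libraries also differed. Vehicle replicate 1 was the lowest vehicle library for 8 of the 10 members and vehicle replicate 2 the highest for 7. The sums without vehicle replicate 1 gave a log2 difference of 0.61 between 326E and vehicle, and those without vehicle replicate 2 gave 1.04, against 0.78 with all libraries.

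Among pairs of members, Mup10 and Mup21 had the most similar profile, with a root mean square difference of 0.62 in centred log2(FPKM+1) over the 9 libraries. Mup15 and Mup20 were the least similar, at 4.66. The family's sum of FPKM times gene length was likewise centred on the log2 scale. Closest to it were Ces2a, Ces3b, Thrsp, Coq8a and Slc22a28, the 5 most similar of 11795 protein-coding genes. They were at 0.33, 0.33, 0.46, 0.49 and 0.49, where the median gene had 1.51. The 1 added to FPKM shrinks changes of low genes, such as Mup10 and Slc22a28, but hardly those of the sum. Ces2a and Ces3b encode carboxylesterases, Thrsp a thyroid hormone-responsive protein of fat synthesis, Coq8a a factor of coenzyme Q synthesis and Slc22a28 a transporter of the organic anion family. Ces2a had 19.3, 24.8 and 28.5 FPKM in 326E, 10.7, 10.8 and 15.8 FPKM in vehicle, and 166, 169 and 156 FPKM in chow. As these 5 were picked for likeness, their differences are not tested.

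Other Mup genes of the table had similar group orders in part. Of 38 other rows, 11 are protein coding and 27 pseudogenes, 21 passed the filter, and 7 had no read in any library. Of the 10 protein-coding rows that passed, 9 had all vehicle libraries below all chow libraries (27.0% of tested genes did). All 326E libraries lay above all vehicle libraries in 6 (14.8%) and below all chow libraries in 7 (22.6%). Mup4 passed the filter through its chow libraries only, so its order against chow was fixed by the filter. Mup6 had no vehicle library at 0.5 FPKM and would not have passed without its 326E libraries. Its order against vehicle was thus set by the filter too. Nothing is read from these counts. Mup1 had 4.04, 3.21 and 5.13 FPKM in 326E, 1.51, 1.74 and 1.21 FPKM in vehicle, and 43.3, 43.7 and 46.3 FPKM in chow. Mup18 was likewise lowest in vehicle, at 10.8, 20.2 and 11.8 FPKM in 326E, 0.197, 0.846 and 3.37 FPKM in vehicle, and 29.1, 55.1 and 51.8 FPKM in chow.

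Mup19 had 50.7, 6.66 and 206 FPKM in 326E, 0.0574, 0.879 and 0.218 FPKM in vehicle, and 22.8, 627 and 771 FPKM in chow. All its vehicle libraries lay below the others, and its 326E and chow libraries overlapped. Mup16 had 142, 102 and 15.3 FPKM in 326E, 3.24, 21.3 and 77.0 FPKM in vehicle, and 123.3, 401 and 643 FPKM in chow, so that 326E overlapped both vehicle and chow. Mup13 had 16.5, 8.66 and 29.3 FPKM in 326E, 6.77, 9.15 and 7.67 FPKM in vehicle, and 237, 419 and 97.4 FPKM in chow, and 326E and vehicle overlapped. Among the pseudogenes the most abundant was Mup-ps19, with a mean of 359 FPKM in 326E.

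Several rows departed from this order. Mup6 had 12.0, 7.75 and 12.2 FPKM in 326E, but 0.489, 0.492 and 0.174 FPKM in vehicle, and 0.620, 0.154 and 0.273 FPKM in chow. It was thus listed higher in 326E than in either other group, but it passed the filter only with its 326E libraries. Mup4 was listed at 0 in all 326E and vehicle libraries, and had 6.05, 4.86 and 164 FPKM in chow. Mup2 was lower in 326E than in vehicle, at 1.14, 1.33 and 1.08 FPKM in 326E, 2.10, 3.65 and 4.52 FPKM in vehicle, and 11.4, 12.8 and 127 FPKM in chow.

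Chow replicate 3 stood high for Mup8 (327 FPKM, against 12.5 and 5.17 FPKM in the other chow libraries) and Mup9 (41.2 FPKM, against 6.36 and 7.72 FPKM), as it did for Mup2 and Mup4. It is the library with the most pancreatic RNA, and the part of that RNA in these values was not tested. Mup5 had at most 0.0838 FPKM.

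The tested genes next to the cluster were at low levels. On its left, Snx30, a sorting nexin, averaged 2.44, 2.33 and 2.49 FPKM in 326E, vehicle and chow, and Inip, a DNA repair factor, averaged 1.0, 1.14 and 1.13 FPKM. On its right, Slc31a2, a copper transporter, averaged 4.95, 6.29 and 5.20 FPKM, and Fkbp15, an FK506-binding protein, 4.62, 4.77 and 5.27 FPKM in the same order. All vehicle libraries of Slc31a2, at 6.07 to 6.53 FPKM, lay above its 326E libraries (4.32 to 5.39 FPKM) and its chow libraries (4.84 to 5.68 FPKM). None of the 4 was called by limma, at an adjusted p under 0.05, in any of the 3 comparisons, and their smallest adjusted p was 0.0818, for Slc31a2 in vehicle against chow, which became 0.0069 with scaling to assigned reads.

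Male-biased liver genes, which like most Mup genes are higher in males than females, fell on CDAA-HFD and in part rose with 326E. Of 19 such genes outside the family, 18 were tested. Rises and falls are those called by limma at an adjusted p under 0.05 over all 13737 tested genes. Of those tested genes 20.8% rose and 20.8% fell in vehicle against chow (41.6% in either direction), 4.96% rose and 6.50% fell in 326E against vehicle, and 14.4% rose and 12.5% fell in 326E against chow. In vehicle against chow all 18 male-biased genes fell, with a median log2 difference of -2.14 (all genes -0.04). In 326E against vehicle 10 rose and none fell, with a median of 1.07 (all genes -0.02). In 326E against chow 12 fell and 1 rose, with a median of -1.41 (all genes -0.02). The list was chosen with earlier results of these data known.

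Hsd3b5, a male-specific steroid dehydrogenase, had 26.7, 15.8 and 40.4 FPKM in 326E, 0.118, 5.69 and 0.412 FPKM in vehicle, and 248.7, 140.0 and 168 FPKM in chow. It fell in vehicle against chow, by 6.37 on the log2 scale (SE 0.62, limma adjusted p = 8.25e-05), and rose in 326E against vehicle, by 3.61 (SE 0.62, limma adjusted p = 0.0089). Elovl3, a fatty acid elongase, had 77.8, 42.3 and 56.6 FPKM in 326E, 4.87, 7.15 and 3.77 FPKM in vehicle, and 139.5, 166 and 209 FPKM in chow. It rose by 3.25 in 326E against vehicle (SE 0.26, limma adjusted p = 0.000537) and stayed below chow.

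Cyp4a12a, an omega-hydroxylase of fatty acids in male mouse liver and kidney, had 266, 287 and 279.8 FPKM in 326E, 10.1, 44.5 and 18.7 FPKM in vehicle, and 203, 55.6 and 192 FPKM in chow. It rose by 3.69 in 326E against vehicle (SE 0.57, limma adjusted p = 0.00614), and all its 326E libraries lay above all its chow libraries. Its paralog Cyp4a12b rose in 326E against chow by 1.38 (SE 0.44, limma adjusted p = 0.047), a call that ended with no filter, with a replicate block and without each 326E library, vehicle replicate 3 or chow replicate 2 or 3. Selenbp2, a selenium-binding protein, fell in vehicle against chow by 2.29 (SE 0.42, limma adjusted p = 0.00252), and in 326E it had 105, 34.1 and 80.8 FPKM, overlapping the vehicle values of 49.8, 82.5 and 47.2 FPKM. The male-biased genes therefore split in 326E livers, with 10 called higher than in vehicle and 8 not called.

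Of 23 female-biased genes only 12 were tested, as 11 were near 0. In vehicle against chow 6 rose and 1 fell, in 326E against vehicle 2 rose and 2 fell, and in 326E against chow 4 rose and none fell, with medians of 1.67, -0.23 and 0.45 (all genes -0.04, -0.02 and -0.02). Over all tested genes 20.8%, 4.96% and 14.4% rose in these comparisons, and 20.8%, 6.50% and 12.5% fell. The rises in 326E against vehicle numbered 0 without 326E replicate 2 or 3, and 1 without vehicle replicate 1, and those in 326E against chow 7 with scaling to assigned reads. Cyp2a4, a testosterone hydroxylase, had 25.9, 57.4 and 89.1 FPKM in 326E, 10.5, 2.69 and 12.1 FPKM in vehicle, and 0.267, 0.133 and 0.681 FPKM in chow. It rose in vehicle against chow (log2 2.62, SE 0.53, limma adjusted p = 0.00408) and in 326E against vehicle (log2 2.66, SE 0.53, limma adjusted p = 0.0161), calls that ended with voom (adjusted p = 0.0529) and without 326E replicate 2 or 3 (adjusted p = 0.0585 and 0.0545).

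Atp6v0d2, a subunit of the vacuolar proton pump, had 10.8, 8.19 and 6.18 FPKM in 326E, 25.7, 30.5 and 34.2 FPKM in vehicle, and 0.742, 1.48 and 0.871 FPKM in chow. It fell in 326E against vehicle (log2 -1.75, SE 0.20, limma adjusted p = 0.00203). Its groups lay in the order of the macrophage marker sums given below, highest in vehicle and lowest in chow. Which cells express it was not tested. Acot3, a peroxisomal thioesterase, had 13.2, 31.9 and 24.0 FPKM in 326E, 6.38, 5.84 and 7.39 FPKM in vehicle, and 1.55, 0.382 and 0.212 FPKM in chow. Cyp2b9, a female-specific cytochrome, had 3.92, 12.9 and 29.5 FPKM in 326E, 7.79, 0.367 and 24.2 FPKM in vehicle, and 0, 0.165 and 0.0970 FPKM in chow. Sult2a1, a sulfotransferase, was at most 0.193 FPKM in any library.

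**Figure D4:**
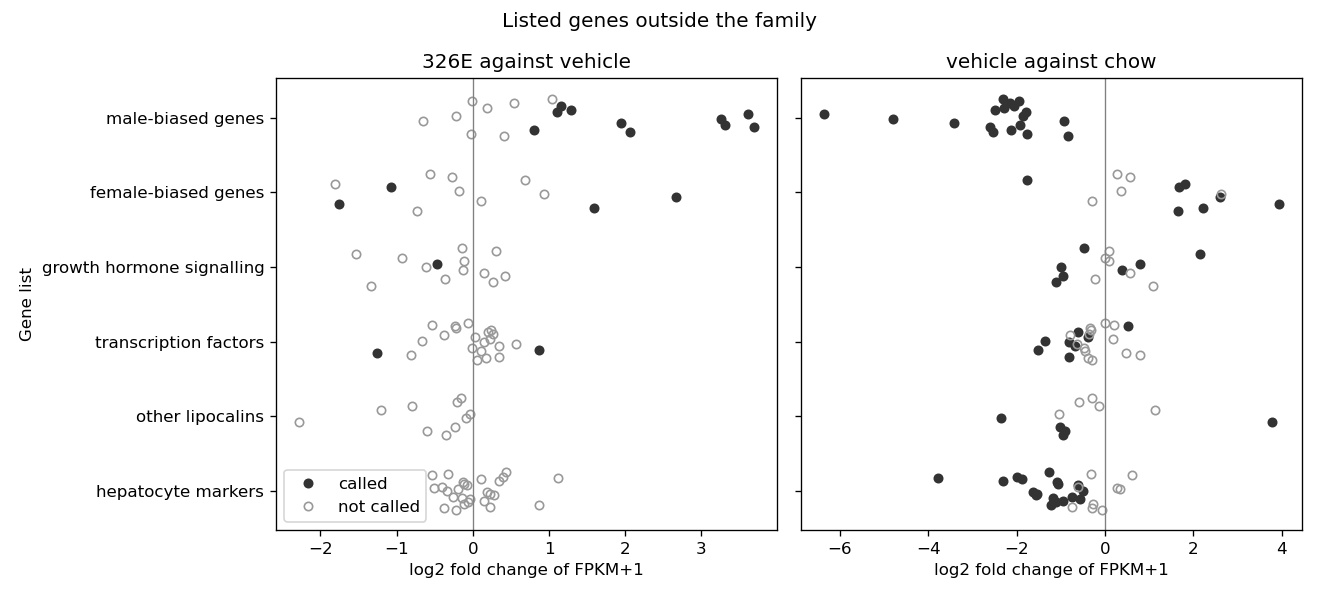
Log2 fold changes of FPKM+1 for the listed genes outside the family, 1 point per gene, in 326E against vehicle (left) and vehicle against chow (right), filled where limma called the gene. All 18 male-biased genes lie left of 0 in vehicle against chow and 10 are filled right of 0 in 326E against vehicle, where hepatocyte markers have no filled point.

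The growth hormone pathway itself, which feeds Mup transcription, was measured by 14 genes, of which 13 were tested. In vehicle against chow 3 rose and 4 fell, in 326E against vehicle none rose and 1 fell, and in 326E against chow none rose and 4 fell, with medians of 0.08, -0.14 and -0.24. The 3 and 4 of 13 in vehicle against chow stand beside 20.8% and 20.8% of all tested genes, the falls in 326E against vehicle beside 6.50% and those in 326E against chow beside 12.5%. With scaling to assigned reads 5 rose and 2 fell in vehicle against chow, and 5 rose and 2 fell in 326E against chow. Ghr, the growth hormone receptor, had 42.6, 48.6 and 56.0 FPKM in 326E, 38.5, 38.2 and 45.4 FPKM in vehicle, and 101.7, 75.4 and 90.1 FPKM in chow. It fell in vehicle against chow by 1.11 (SE 0.14, limma adjusted p = 0.00039) and in 326E against chow by 0.85 (SE 0.14, limma adjusted p = 0.00325), while 326E and vehicle overlapped.

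Stat5b, the transcription factor below the receptor, had 11.8, 13.1 and 11.1 FPKM in 326E, 12.7, 13.4 and 13.9 FPKM in vehicle, and 18.8, 18.7 and 19.2 FPKM in chow. Its fall in vehicle against chow (log2 -0.48, SE 0.09, limma adjusted p = 0.0023) was not called with scaling to assigned reads (log2 -0.10, adjusted p = 0.49). Igf1, a hormone made under growth hormone, had 43.0, 52.5 and 64.8 FPKM in 326E, 70.1, 73.8 and 61.4 FPKM in vehicle, and 80.4, 79.3 and 80.9 FPKM in chow, and fell only in 326E against chow (log2 -0.60, SE 0.15, limma adjusted p = 0.0163), a call lost under both other scalings and without 326E replicate 2 (adjusted p of 0.053 to 0.223). Socs2, a feedback inhibitor and STAT5 target, had 0.808, 2.22 and 3.08 FPKM in 326E, 4.45, 4.51 and 4.52 FPKM in vehicle, and 2.85, 6.62 and 4.53 FPKM in chow, and was called in none of the comparisons.

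Inhibitors and a related receptor moved in part. Socs3, an inhibitor induced by inflammation, had 4.93, 4.19 and 3.94 FPKM in 326E, 16.8, 4.08 and 39.5 FPKM in vehicle, and 2.22, 3.07 and 2.20 FPKM in chow, and rose in vehicle against chow (log2 2.15, SE 0.59, limma adjusted p = 0.0176), a call that ended without vehicle replicate 1 (adjusted p = 0.0515). Ptpn1, a phosphatase that dephosphorylates JAK2, fell in 326E against vehicle (log2 -0.48, SE 0.11, limma adjusted p = 0.0263), a call that ended in 6 of 18 alternatives (adjusted p of 0.0524 to 0.0961), among them without 326E replicate 1 or 2 or vehicle replicate 1 or 3. Prlr, the prolactin receptor, fell in 326E against chow (log2 -1.60, SE 0.31, limma adjusted p = 0.00602). It also fell in vehicle against chow, a call that ended in 7 of 18 alternatives (limma adjusted p of 0.0531 to 0.0994). In 326E against vehicle Prlr was not called.

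Of 23 transcription factors of hepatocytes and of sex-biased genes, 22 were tested, and in vehicle against chow 1 rose and 7 fell. In 326E against vehicle 1 rose and 1 fell, and in 326E against chow none rose and 5 fell, with medians of -0.38, 0.09 and -0.33 in the 3 comparisons. Falls over all tested genes were 20.8% in vehicle against chow (41.6% were called in either direction), 6.50% in 326E against vehicle and 12.5% in 326E against chow. With scaling to assigned reads 2 of these factors fell in vehicle against chow and 2 in 326E against chow, and the falls against chow in 326E livers also numbered 2 without 326E replicate 1, and 3 without 326E replicate 2 or chow replicate 3. Hnf4a, a regulator of hepatocyte genes, had 103, 86.8 and 90.8 FPKM in 326E, 86.6, 81.7 and 84.5 FPKM in vehicle, and 146, 181 and 123.1 FPKM in chow. Its fall in vehicle against chow (log2 -0.81, SE 0.14, limma adjusted p = 0.00211) was not called with scaling to assigned reads (log2 -0.41, adjusted p = 0.0627).

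Foxa2, a pioneer factor, had 5.64, 8.24 and 8.21 FPKM in 326E, 3.25, 4.86 and 2.74 FPKM in vehicle, and 8.43, 13.4 and 15.1 FPKM in chow. It fell in vehicle against chow (log2 -1.52, SE 0.24, limma adjusted p = 0.00105) and rose in 326E against vehicle (log2 0.87, SE 0.24, limma adjusted p = 0.0484), and the second call ended in 10 of 18 alternatives (adjusted p of 0.0502 to 0.144), among them without each library but vehicle replicate 2 and chow replicate 1. Esr1, the estrogen receptor α gene, fell to 0.356, 0.365 and 0.864 FPKM in 326E, against 2.10, 3.54 and 2.36 FPKM in vehicle (log2 -1.26, SE 0.19, limma adjusted p = 0.00582), with 1.35, 2.13 and 1.39 FPKM in chow. Nr0b2, a corepressor of bile acid synthesis, fell in 326E against chow (log2 -2.02, SE 0.44, limma adjusted p = 0.00997). It also fell in vehicle against chow, a call that ended in 8 of 18 alternatives (limma adjusted p of 0.0512 to 0.109). In 326E against vehicle Nr0b2 was not called.

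Further factors linked to sex-biased and Mup expression showed little. Zhx2, a factor that acts on liver genes after birth and in mice also affects Mup expression, was at 3.83 to 5.56 FPKM in all libraries. It was called in no comparison. Bcl6, a male-biased repressor, varied from 1.39 to 13.9 FPKM within groups and was not called. Cux2, a female-specific factor, was at most 0.118 FPKM in any library and was not tested.

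Of the other lipocalins, 12 are in the table and 10 of them were tested. In vehicle against chow 1 rose and 4 fell. In 326E against vehicle none was called (0 to 2 falls over the alternatives run), and in 326E against chow 5 fell, with medians of -0.74, -0.29 and -1.01. Of all tested genes 20.8% rose and 20.8% fell in vehicle against chow, and 12.5% fell in 326E against chow. In 326E against vehicle 11.5% of them were called, and 6.50% fell, so few calls were due among 10 genes. Lcn2, an iron-siderophore binder of the acute phase, had 39.1, 16.8 and 29.0 FPKM in 326E, 93.4, 163 and 159 FPKM in vehicle, and 1.71, 89.3 and 2.95 FPKM in chow, where chow replicate 2 stood apart. Its rise in vehicle against chow (log2 3.77, SE 1.11, limma adjusted p = 0.0232) ended in 6 of 18 alternatives (adjusted p of 0.0522 to 0.0781), among them without vehicle replicate 2 or 3 or chow replicate 1 or 3. All 326E libraries of Lcn2 lay below all its vehicle libraries. That fall (log2 -2.28) was called only without chow replicate 2 (limma adjusted p = 0.0065) and with only the libraries of the comparison (limma adjusted p = 0.0135). Without chow replicate 2 Lcn2 was also called higher in 326E against chow (log2 3.08, limma adjusted p = 0.0014).

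Obp2a, an odorant-binding protein, was listed at 0 in all 326E libraries, and had 0, 0.198 and 0 FPKM in vehicle, and 4.89, 5.40 and 3.30 FPKM in chow. It passed the filter through its chow libraries only, so its order against chow was fixed by the filter. It is among the falls against chow counted above, in vehicle and in 326E. Rbp4, the plasma retinol carrier, had 1533, 1522 and 1812 FPKM in 326E, 1995, 1612 and 1802 FPKM in vehicle, and 2125, 2156 and 2331 FPKM in chow, and was not called. Apom, an apolipoprotein that carries sphingosine phosphate, fell in 326E against chow (log2 -1.50, SE 0.19, limma adjusted p = 0.000714).

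Markers of cell types moved with the diet, and their part in the Mup result was not tested. Of 27 hepatocyte markers 18 fell and none rose in vehicle against chow, and none was called in 326E against vehicle. In 326E against chow 18 fell. Over all tested genes 20.8% fell in vehicle against chow, 11.5% were called in 326E against vehicle and 12.5% fell in 326E against chow. After quantile normalization 6 fell and 5 rose in vehicle against chow and 8 fell in 326E against chow, and 2 rose in vehicle against chow without chow replicate 2. Their summed level was 46996 to 62047 FPKM in 326E, 49658 to 69727 FPKM in vehicle and 91351 to 99059 FPKM in chow. Alb had 16456, 18250.4 and 25782 FPKM in 326E, 25838, 20061 and 32449 FPKM in vehicle, and 34911, 25921 and 34467 FPKM in chow, and was not called. Ttr fell in vehicle against chow (log2 -1.28, SE 0.21, limma adjusted p = 0.0013), except after quantile normalization (adjusted p = 0.175). Serpina1e, an antitrypsin, had 1290.4, 496 and 1640.3 FPKM in 326E, 270 to 664 FPKM in vehicle and 6087 to 6979 FPKM in chow.

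Of all tested genes 20.8% rose in vehicle against chow, 6.50% fell in 326E against vehicle and 14.4% rose in 326E against chow. Of 12 macrophage markers 11 rose in vehicle against chow, 8 fell in 326E against vehicle, and 11 rose in 326E against chow, with a summed level of 605 to 1001 FPKM in 326E, 1126 to 1576 FPKM in vehicle and 221 to 246 FPKM in chow. Of 11 stellate cell markers 9 rose in vehicle against chow, 6 fell in 326E against vehicle, and 8 rose in 326E against chow, with sums of 165 to 195 FPKM in 326E, 254 to 372 FPKM in vehicle and 52.2 to 71.0 FPKM in chow. In 326E against vehicle the macrophage falls numbered 3 to 9 over the alternatives run (3 and 5 without 326E replicate 2 and 3, 5 and 4 without vehicle replicate 2 and 3) and the stellate falls 2 to 6 (3, 2 and 2 without 326E replicate 1, 2 and 3, and 2 and 3 without vehicle replicate 2 and 3). Among them the fall of Lyz2, a lysozyme, ended in 12 of 18 alternatives, that of Cd14, a coreceptor for endotoxin, in 7, and those of the collagen genes Col1a1 and Col3a1 in 8 each. None of the macrophage or stellate markers was at 0 in every library. Of 5 tested cholangiocyte markers 3 rose in vehicle against chow, none was called in 326E against vehicle and 1 rose in 326E against chow. Of 6 endothelial markers 2 rose and 1 fell in vehicle against chow, none was called in 326E against vehicle and 2 rose in 326E against chow. Of 5 tested markers of carried-over tissue, Alas2, an enzyme of heme synthesis in red cells, fell in vehicle against chow, rose in 326E against vehicle (a call lost with a replicate block and without 326E replicate 2 or 3 or vehicle replicate 2 or 3, at adjusted p of 0.0523 to 0.0731) and fell in 326E against chow, and Myh4, of skeletal muscle, was at 0 in every library.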

How the data were processed

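The authors deposited FPKM values for each gene and library, with a gene length in bases (a table of the whole series). Per the submitters' processing notes, HISAT2, featureCounts and mm10 were used; versions, annotation release, strand and handling of multi-mapping reads are not given in the sources used here, so overlapping and antisense genes are uncertain. Multiplied by length and divided by what 1 read is worth in each library (49.2 to 91.0 FPKM times length), 100% of the deposited FPKM values gave whole reads to within 0.01. Members, lists, named genes and alternatives were chosen with earlier results of these data known.

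The low-value filter, 0.5 FPKM or more in 3 or more of the 9 libraries, kept 13737 of 54532 genes. A single limma fit (version 3.58.1, R 4.3.3) took log2(FPKM+1) of all 9 libraries, allowed the variance to depend on the level, and left 6 residual degrees of freedom. Adjustment was by Benjamini-Hochberg for each comparison separately, with calls made below an adjusted p of 0.05. Named genes were the members, other Mup rows, the genes fixed by name, the 2 called genes of each list with the largest change, the 5 genes most like the family's sum and the 2 tested genes on each side of the cluster; genes of the cell type lists are mostly given as counts. Lists were growth hormone signalling, transcription factors, male-biased and female-biased genes, other lipocalins, hepatocyte, macrophage, stellate, cholangiocyte and endothelial markers, and markers of carried-over tissue. Alternatives were other pseudocounts, filters, scalings, a replicate block, fits on fewer libraries and voom on whole reads. Same-numbered libraries did not deviate together (correlations from -0.24 to 0.02), and the main fit used no pairing. With 3 libraries per group these correlations cannot exclude a pairing or a shared batch behind the numbers. Replicates differed by more than counting error (chi-square per degree of freedom of 18.8 to 72.3). Coordinates of all 10 members were the same in GENCODE release M21. Software also included pandas 2.3.3, numpy 2.4.6 and matplotlib 3.10.9 under Python 3.11.15.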

Additional observations from a re-analysis of the deposited data

How the results depend on the processing

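The number of reads and paralogs with few bases of their own limit single Mup genes, and 3 libraries per group limit every difference. Male-biased genes called lower in vehicle against chow were 18 in all fits that left out a library and 16 with either other scaling, and those called higher in 326E against vehicle were 7 to 10. The single male-biased gene called higher in 326E against chow was lost with no filter (0) and with a replicate block (0), and numbered 0 to 1 when libraries were left out in turn.

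Over all genes, calls in 326E against vehicle were 1574, 1030 with no filter, and 659 to 1623 when libraries were left out in turn (961, 659 and 724 without 326E replicate 1, 2 and 3, and 879 without vehicle replicate 3). In 326E against chow they were 3688, and 2401 to 3717 when libraries were left out, fewest again without 326E replicate 2. The causes were not tested. Scaling to total assigned reads moved the median log2 difference of all genes from -0.04 to 0.25 in vehicle against chow and from -0.02 to 0.24 in 326E against chow, and the share of higher genes among those called from 49.97% to 84.3% and from 53.5% to 87.0%. With it the log2 difference of the members' sum was -3.05 in place of -3.47 in vehicle against chow and -2.31 in place of -2.68 in 326E against chow. Left-out libraries gave -3.72 to -3.29, 0.61 to 1.04 in 326E against vehicle, and -2.77 to -2.63. Rbp4 in vehicle against chow turned from -0.29 (limma adjusted p = 0.159) to 0.72 after quantile normalization (adjusted p = 0.0074).

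With the replicate number as a block, the diet comparison of vehicle with chow called 5163 genes, 326E against vehicle 1037 genes, and 326E against chow 3075 genes. The planned quasi-likelihood test on whole reads was not run, since the deposited unit is FPKM, and voom on the recovered reads, added after seeing the data, called 5709, 1860 and 3811 genes in the same order. Counting each named gene outside the family once per comparison and alternative, 144 values lost a call, 41 gained one, 1 reversed (Rbp4) and 2622 did none of these.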

Other observations

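A gene inside the cluster that the table lists as Gm21320 (chromosome 4, 60817589 to 60821463, mm10), and that the reference's gene names call Mup22, was not among the Mup rows counted by symbol. It was chosen after its values were seen. It had 840 FPKM, 779 FPKM and 813 FPKM in the 326E libraries, 0.710 FPKM, 691 FPKM and 723 FPKM in the vehicle libraries, and 2748 FPKM, 3244 FPKM and 3460.3 FPKM in the chow libraries. Vehicle replicate 1, the lowest vehicle library for 8 of the 10 members, stood apart from the other 2 vehicle libraries here by far more than for Mup3 or Mup20.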
